A study of Homo sapiens with 9 samples.

Results

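MHC class I antigen presentation was followed through 9 genes, HLA-B, HLA-C, HLA-E, B2M, TAP1, TAPBP, PSMB8, PSMB9 and NLRC5, taken by symbol from a table of 40332 genes. All 9 were in the table, and 7 of them passed the filter on low counts and were tested. PSMB8 and PSMB9 did not pass. The RNA came from H1, an established line of human embryonic stem cells, wild-type in all groups. In the first group the cells were in N2B27, a serum-free basal medium, with 5 µM EPZ-6438 for 3 days. EPZ-6438 inhibits EZH2, the methyltransferase of the Polycomb repressive complex PRC2, which places the H3K27me3 mark. The second group was in N2B27 alone, and the third was in PXGL, a medium of LIF and inhibitors (against MEK, tankyrase and PKC) that keeps human stem cells naive. Each group had 3 libraries. The sources used here do not give how long the N2B27 cells had been out of PXGL or whether they received the inhibitor's solvent. Nor do they say whether a group's libraries came from separate cultures, so p-values measure only the spread among these libraries and that spread may be technical.

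Class I molecules show peptides from inside the cell to T cells. A polymorphic heavy chain pairs with beta-2-microglobulin, and the pair receives a peptide cut by the proteasome and carried into the endoplasmic reticulum by the TAP transporter. Interferon-gamma raises the whole set through IRF1 and the transactivator NLRC5, and PRC2 is known to silence several of these genes in tumour cells. Undifferentiated embryonic stem cells are known for low surface class I.

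Total counts were between 14482105 and 18358530 per library, where 3 counts corresponded to 0.164 to 0.211 CPM. CPM here means counts per 10⁶ after TMM scaling, a correction for library composition. Within PXGL, replicate 1 differed from the other libraries (chi-square per degree of freedom 19.6 and 26.3, against 3.41 between the other PXGL libraries and 2.57 to 3.67 between replicates elsewhere). All 5 markers of human embryonic stem cells were detected in every group, with summed levels of 3696 to 3739 CPM with EPZ-6438, 4492 to 4568 CPM in N2B27 and 3196 to 3536 CPM in PXGL. Of 5 blood cell markers, whose cells are rich in class I, the summed level was 0.973 to 1.54 CPM with EPZ-6438, 1.53 to 1.88 CPM in N2B27 and 2.41 to 3.02 CPM in PXGL. HBB was at 0 with EPZ-6438, PTPRC, CD3E and HBB in N2B27 and CD3E in PXGL. Of 7 fibroblast markers DCN was at 0 with EPZ-6438, COL3A1, DCN and LUM in N2B27 and LUM and POSTN in PXGL, while the summed level was 84.7 to 88.4, 164 to 177 and 14.6 to 19.9 CPM in that order of groups. The summed level of 6 hypoblast markers was 164 to 167 CPM with EPZ-6438, 102 to 112 CPM in N2B27 and 32.6 to 40.6 CPM in PXGL. The 5 naive markers summed to 1743 to 1820 CPM with EPZ-6438, 1416 to 1454 CPM in N2B27 and 1920 to 2310 CPM in PXGL, and were lowest in N2B27. The 5 primed markers summed to 354 to 360 CPM with EPZ-6438, 643 to 650 CPM in N2B27 and 44.9 to 47.5 CPM in PXGL. The 7 trophectoderm and amnion markers, of which VTCN1 was at 0 in every group, summed to 21.2 to 24.5, 8.93 to 9.74 and 13.4 to 15.7 CPM in that order of groups. The part of these markers in the results below was not tested, and in bulk RNA fewer cells of a type and less RNA per cell cannot be told apart.

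The promoters of HLA-B, HLA-C, B2M and TAP1, genes whose levels differed between groups, are shown because the letters of class I enhancer elements can be read in them. The sequences are RefSeq's, build GRCh38.p14, 250 bases before to 50 after the annotated start, written 5′ to 3′ along the gene. RefSeq promoters were matched for 7 of the 9 genes.
HLA-B promoter, chr6:31357130-31357429, minus strand: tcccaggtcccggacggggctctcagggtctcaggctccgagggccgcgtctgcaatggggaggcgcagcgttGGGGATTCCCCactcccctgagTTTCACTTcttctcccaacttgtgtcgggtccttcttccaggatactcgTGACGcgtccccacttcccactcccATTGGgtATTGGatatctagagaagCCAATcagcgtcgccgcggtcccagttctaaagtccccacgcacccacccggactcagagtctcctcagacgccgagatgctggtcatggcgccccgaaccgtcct
HLA-C promoter, chr6:31272043-31272342, minus strand: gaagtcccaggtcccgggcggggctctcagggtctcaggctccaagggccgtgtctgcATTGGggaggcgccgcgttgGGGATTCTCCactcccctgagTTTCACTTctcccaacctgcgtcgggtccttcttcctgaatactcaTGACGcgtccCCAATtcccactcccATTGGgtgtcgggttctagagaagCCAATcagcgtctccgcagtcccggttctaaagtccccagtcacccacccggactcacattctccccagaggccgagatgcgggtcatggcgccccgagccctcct
B2M promoter, chr15:44711267-44711566, plus strand: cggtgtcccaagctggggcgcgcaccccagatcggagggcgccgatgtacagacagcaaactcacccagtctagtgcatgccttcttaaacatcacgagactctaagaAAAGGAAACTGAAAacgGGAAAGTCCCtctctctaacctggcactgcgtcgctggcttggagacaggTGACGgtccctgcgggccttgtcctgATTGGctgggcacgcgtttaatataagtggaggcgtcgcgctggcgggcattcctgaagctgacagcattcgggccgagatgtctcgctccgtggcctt
TAP1 promoter, chr6:32853655-32853954, minus strand: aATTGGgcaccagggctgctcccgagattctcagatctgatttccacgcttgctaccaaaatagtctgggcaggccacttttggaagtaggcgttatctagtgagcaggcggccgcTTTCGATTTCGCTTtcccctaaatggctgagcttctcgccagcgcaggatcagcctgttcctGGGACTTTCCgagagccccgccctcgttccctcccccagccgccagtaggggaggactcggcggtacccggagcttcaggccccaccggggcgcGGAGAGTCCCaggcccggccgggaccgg
Capitals mark matches, on either strand, to an IRF core (AANNGAAA), a STAT site (TTCNNNGAA), the NF-κB consensus, the cyclic AMP response core of the X2 box (TGACG) and the NF-Y box (CCAAT). These are textbook cores chosen with the sequences in view. Matches of the same motif overlap in the NF-κB pair of HLA-B and in the IRF pairs of B2M and TAP1, where 1 run of capitals holds both. Each of these 4 promoters held an IRF core, at -155 to -148 in HLA-B, -151 to -144 in HLA-C, -142 to -129 in B2M and -134 to -121 in TAP1, counted from the start. Each also held a match to the NF-κB consensus. HLA-B, HLA-C and B2M also held TGACG, and TAP1 did not. RefSeq gives TAP1 a second start, whose promoter held a STAT site match but neither an IRF core nor an NF-κB match. Of the promoters not printed, that of TAPBP held IRF cores and an NF-κB match, 1 of the 2 of PSMB8 held IRF cores, that of PSMB9 held no IRF core, and neither gene's held an NF-κB match. Among 35097 RefSeq promoters of this length, 22.8% held the IRF core, 7.66% the STAT site, 11.3% the NF-κB consensus, 24.5% TGACG and 34.6% CCAAT. A match describes letters in this window and is not a measured site.

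The levels per kilobase of transcript differed widely among the 9 genes. B2M averaged 77.7 CPM per kb with EPZ-6438, 48.0 in N2B27 and 83.3 in PXGL, and was highest in each group. HLA-E averaged 12.3, 12.6 and 19.0 CPM per kb in the same groups, and HLA-C averaged 7.49, 7.35 and 5.83. Below them came HLA-B at 4.66, 5.27 and 2.32 CPM per kb and TAP1 at 3.58, 3.25 and 2.18. HLA-B and TAP1 overlapped in PXGL, where HLA-B ran from 1.62 to 2.73 and TAP1 from 1.97 to 2.30 CPM per kb. TAPBP averaged 1.68, 1.65 and 1.04, PSMB8 0.747, 0.410 and 0.376, and NLRC5 0.243, 0.155 and 0.117. PSMB9, at 0.0548, 0.0865 and 0.117 CPM per kb, overlapped NLRC5 in N2B27 and in PXGL. In PXGL it ran from 0 to 0.280 CPM per kb and also overlapped PSMB8, which ran from 0.244 to 0.444. No other neighbours in this order overlapped within a group.

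**Figure D1:**
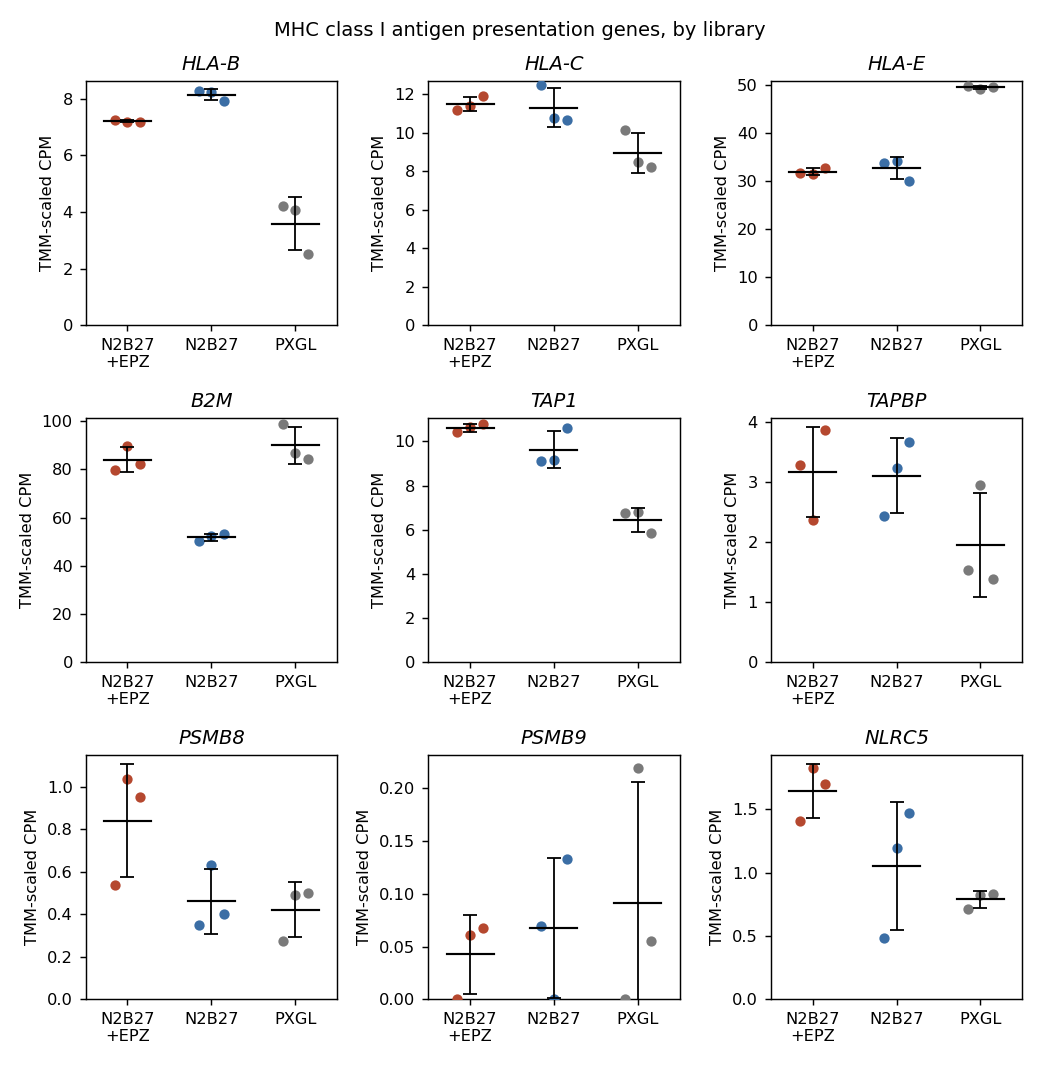
TMM-scaled CPM of each of the 9 genes in each library, with points for the 3 libraries of a group, a line for the mean and bars for 1 SD (cut at 0 for PSMB9). B2M is the gene whose N2B27 points lie below both other groups, and HLA-E is the one with PXGL far above the other groups.

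EPZ-6438 in N2B27 against N2B27 alone asks what blocking PRC2 does to this pathway. Of the 7 genes tested, 1 rose, B2M, and none fell. Across all 15179 genes tested 24.7% were called (14.2% higher and 10.6% lower), so 1 of 7 is near the background. The median log2 fold change of the 7 was 0.03, against 0.01 over all genes. Calls are an adjusted p under 0.05 in edgeR's quasi-likelihood test with Benjamini-Hochberg adjustment over all genes tested, from which every adjusted p here comes, and means are given ± SD over 3 libraries.

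B2M encodes beta-2-microglobulin, the invariant light chain that every class I heavy chain needs to reach the surface. It had 79.9, 89.9 and 82.2 CPM with EPZ-6438, against 50.3, 52.5 and 53.0 CPM in N2B27. Each EPZ-6438 library lay above each N2B27 library; the 2 groups did not overlap, in one direction or the other, for 46.4% of all genes tested. B2M averaged 84.0 ± 5.22 CPM with EPZ-6438 and 51.9 ± 1.46 CPM in N2B27, a rise of 1.62-fold (95% interval 1.44 to 1.81; log2 0.69, SE 0.08, adjusted p = 5.32e-06). In PXGL the 3 libraries had 98.8, 86.9 and 84.5 CPM, so the EPZ-6438 values overlapped them.

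The classical heavy chains HLA-B and HLA-C, which bind peptides for T cells, were not called with EPZ-6438. HLA-B had 7.25, 7.18 and 7.19 CPM with EPZ-6438, against 8.29, 8.23 and 7.94 CPM in N2B27. The EPZ-6438 libraries were all below the N2B27 ones, but the log2 difference of -0.18 did not pass the test (SE 0.18, adjusted p = 0.515). HLA-C had 11.2, 11.4 and 11.9 CPM with EPZ-6438, against 12.5, 10.8 and 10.7 CPM in N2B27, and the groups overlapped (log2 0.03, SE 0.14, adjusted p = 0.914). The 95% interval of the HLA-C log2 difference ran from -0.26 to 0.31, and that of HLA-B from -0.56 to 0.21.

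HLA-E, a non-classical heavy chain that presents leader peptides of other class I chains to natural killer cell receptors, was not called either. It had 31.7, 31.4 and 32.7 CPM with EPZ-6438, against 33.8, 34.2 and 30.1 CPM in N2B27. The groups overlapped, and the log2 difference of -0.03 had a 95% interval from -0.21 to 0.14 (adjusted p = 0.819).

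The peptide-loading genes among the 9 were not called with the inhibitor. TAP1, a subunit of the peptide transporter, had 10.4, 10.6 and 10.8 CPM with EPZ-6438, against 9.12, 9.14 and 10.6 CPM in N2B27, with overlap (log2 0.14, SE 0.14, adjusted p = 0.499). TAPBP, or tapasin, which holds the heavy chain at the transporter, had 3.29, 2.37 and 3.86 CPM with EPZ-6438, against 2.44, 3.23 and 3.67 CPM in N2B27 (log2 0.02, SE 0.31, adjusted p = 0.969). The 95% interval of the TAPBP log2 difference ran from -0.63 to 0.67, and its libraries overlapped.

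NLRC5, the transactivator of class I promoters, was near the limit of detection. Its counts were 21, 30 and 25 with EPZ-6438, against 7, 17 and 22 in N2B27 and 13, 15 and 15 in PXGL. The lowest EPZ-6438 library, at 1.41 CPM, lay below the highest N2B27 library, at 1.47 CPM. The log2 difference was 0.64 with a 95% interval from -0.22 to 1.5 (adjusted p = 0.277), so a rise of the size seen for B2M was not distinguishable from none at this depth. The log2 difference was 0.30 without N2B27 replicate 1 and 0.96 without N2B27 replicate 3 (adjusted p = 0.653 and 0.187).

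PSMB8 and PSMB9 encode the inducible subunits that replace constitutive catalytic subunits in the immunoproteasome. PSMB8 had 8, 17 and 14 counts with EPZ-6438, against 5, 9 and 6 in N2B27 and 5, 9 and 9 in PXGL. With EPZ-6438 the sum was 39 counts, against 20 in N2B27, and the ranges overlapped. Without the filter the log2 difference was 0.84 with an SE of 0.65 (adjusted p = 0.443 over 22640 genes). PSMB9 summed to 2 counts with EPZ-6438, 3 in N2B27 and 5 in PXGL, at or near the floor.

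N2B27 against PXGL asks what leaving the naive medium does to the pathway. The genes divided: HLA-B, HLA-C and TAP1 rose, B2M and HLA-E fell, and TAPBP and NLRC5 were not called. Over all genes tested 56% were called (27.3% higher and 28.7% lower), against 5 of these 7. The median log2 fold change of the 7 was 0.41, against -0.03 over all genes. This comparison and the one with EPZ-6438 share the N2B27 libraries.

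HLA-B had the largest rise of the 7. It had 8.29, 8.23 and 7.94 CPM in N2B27, against 4.22, 4.05 and 2.5 CPM in PXGL, with no overlap, as for 60.8% of all genes tested. The means were 8.15 ± 0.188 CPM in N2B27 and 3.59 ± 0.95 CPM in PXGL, a 2.26-fold rise (log2 1.18, SE 0.19, adjusted p = 6.02e-05). HLA-C had 12.5, 10.8 and 10.7 CPM in N2B27, against 10.1, 8.49 and 8.22 CPM in PXGL. Its groups also stood apart, with a rise of 1.26-fold (log2 0.33, SE 0.14, adjusted p = 0.0459), and the call ended under 11 of 15 alternative settings, among them leaving out any 1 library other than PXGL replicate 1, where the adjusted p reached 0.168. TAP1 had 9.12, 9.14 and 10.6 CPM in N2B27, against 6.75, 6.79 and 5.83 CPM in PXGL. TAP1 rose 1.49-fold without overlap (log2 0.58, SE 0.14, adjusted p = 0.00243).

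B2M and HLA-E moved the other way. B2M had 50.3, 52.5 and 53.0 CPM in N2B27, against 98.8, 86.9 and 84.5 CPM in PXGL. It fell by 0.79 on the log2 scale (SE 0.08, adjusted p = 2.34e-07), to 51.9 ± 1.46 CPM in N2B27, against 90.1 ± 7.67 CPM in PXGL. HLA-E had 33.8, 34.2 and 30.1 CPM in N2B27, against 49.7, 49.1 and 49.6 CPM in PXGL. HLA-E fell by 0.60 on the log2 scale (SE 0.08, adjusted p = 8.02e-06), and for both genes the groups were far from overlapping. TAPBP averaged 3.11 ± 0.624 CPM in N2B27 and 1.96 ± 0.867 CPM in PXGL (log2 0.67, adjusted p = 0.0847). Without PXGL replicate 2, the highest of its group, the TAPBP log2 difference was 1.09 (adjusted p = 0.0119). NLRC5 averaged 1.05 ± 0.506 CPM in N2B27 and 0.789 ± 0.0663 CPM in PXGL, with overlap (log2 0.41, SE 0.43, adjusted p = 0.434), and its log2 difference was 0.75 without N2B27 replicate 1 and 0.09 without N2B27 replicate 3. PSMB8 and PSMB9 were not tested and overlapped, PSMB8 at 0.460 ± 0.152 CPM in N2B27 and 0.422 ± 0.128 CPM in PXGL and PSMB9 at 0.0677 ± 0.0667 CPM in N2B27 and 0.0916 ± 0.114 CPM in PXGL.

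N2B27 with EPZ-6438 against PXGL sets both ends side by side and shares libraries with both other comparisons. B2M was not called here, at 84.0 ± 5.22 CPM with EPZ-6438 and 90.1 ± 7.67 CPM in PXGL (log2 -0.10, 95% interval -0.26 to 0.06, adjusted p = 0.275). HLA-E did not overlap, as for 60.7% of all genes tested, at 31.9 ± 0.645 CPM with EPZ-6438 and 49.5 ± 0.314 CPM in PXGL (log2 -0.63, adjusted p = 4.46e-06). HLA-B was 2.00-fold higher (adjusted p = 0.000301), HLA-C 1.28-fold higher (adjusted p = 0.0319) and TAP1 1.64-fold higher (adjusted p = 0.000364). NLRC5 was called, at 1.64 ± 0.213 CPM with EPZ-6438 and 0.789 ± 0.0663 CPM in PXGL (log2 1.05, SE 0.41, adjusted p = 0.0383), and the call ended under 8 of 15 alternatives, among them leaving out any 1 EPZ-6438 or PXGL library or N2B27 replicate 2 (adjusted p up to 0.110). The HLA-C call ended under 6 of 15, among them leaving out any 1 EPZ-6438 library or PXGL replicate 2 or 3 (adjusted p up to 0.115). In all, 4 of the 7 rose and 1 fell, against 56.1% of genes called (28.1% higher and 28% lower), and TAPBP was not called (log2 0.69, adjusted p = 0.0740), though it was without PXGL replicate 2 (log2 1.11, adjusted p = 0.0103) or EPZ-6438 replicate 2 (log2 0.86, adjusted p = 0.0466). PSMB8, not tested, averaged 0.840 ± 0.266 CPM with EPZ-6438 and 0.422 ± 0.128 CPM in PXGL, on at most 17 counts in a library. Its CPM ranges did not overlap, but its counts did, at 8 in EPZ-6438 replicate 1 and 9 in PXGL replicates 2 and 3. Without the filter the PSMB8 log2 difference was 0.98 with an SE of 0.64 (adjusted p = 0.242 over 22640 genes). PSMB9 averaged 0.0429 ± 0.0373 CPM with EPZ-6438 and 0.0916 ± 0.114 CPM in PXGL with overlap. Without PXGL replicate 1, the directions of HLA-B, HLA-C, TAP1, B2M and HLA-E in N2B27 against PXGL were unchanged, with log2 differences of 1.31, 0.43, 0.61, -0.72 and -0.60, and all 5 were still called.

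**Figure D2:**
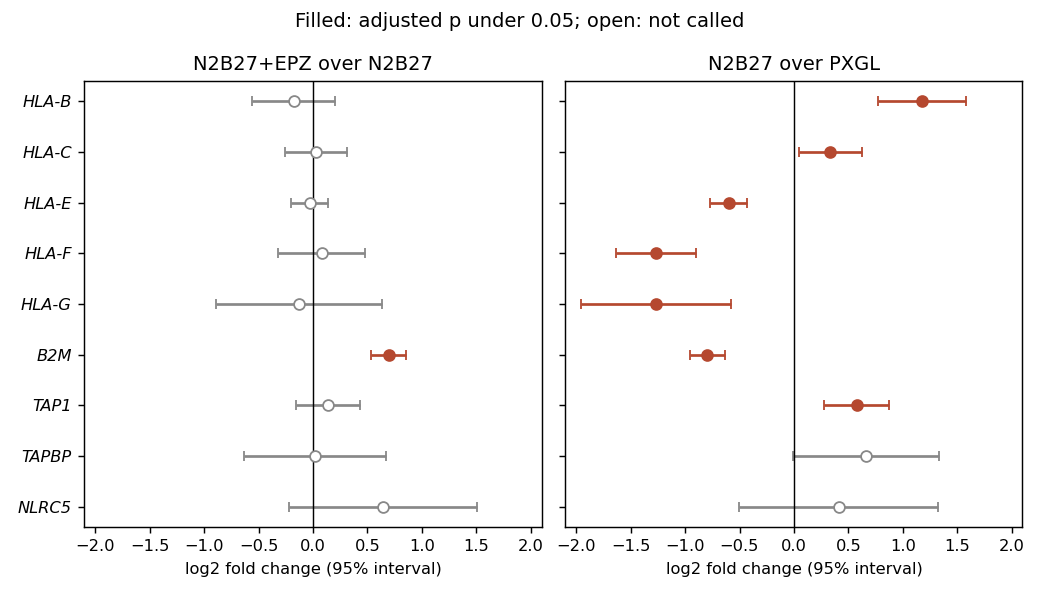
Log2 fold changes with 95% intervals for the 7 tested genes and for HLA-F and HLA-G, EPZ-6438 over N2B27 on the left and N2B27 over PXGL on the right; filled points passed an adjusted p of 0.05. On the left B2M at 0.69 is the filled point, and on the right HLA-B and HLA-C lie above 0 and HLA-E, HLA-F and HLA-G below it.

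Of the 5 heavy chain genes on the list, 2 were higher and 3 lower in N2B27 than in PXGL. The classical HLA-B and HLA-C rose and the non-classical HLA-E, HLA-F and HLA-G fell, all 5 called, against 56% of all genes, though the HLA-C call ended under 11 of 15 alternatives as given above (adjusted p up to 0.168). With EPZ-6438 none of the 5 was called in either direction by edgeR, against 24.7% of all genes (0 of 5 at an unadjusted p under 0.05 and 0 of 5 by DESeq2). HLA-F averaged 5.27 ± 0.644 CPM in N2B27 and 12.7 ± 1.13 CPM in PXGL (log2 -1.27, adjusted p = 1.06e-05). HLA-G, the chain best known from trophoblast, averaged 1.74 ± 0.494 CPM in N2B27 and 4.20 ± 1.38 CPM in PXGL (log2 -1.27, adjusted p = 0.00330).

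Sums over these chains pool reads that are split within a sum, but not reads split with genes outside it. HLA-C shares 5.38% of its 50-base transcript words with other genes, and 2.87% with HLA-B. For HLA-E these shares are 4.34% in all and 2.22% with HLA-G. The chains were grouped with their directions known, so the sums are given without a test. HLA-B and HLA-C summed to 18.7 ± 0.360 CPM with EPZ-6438, 19.4 ± 1.14 CPM in N2B27 and 12.5 ± 1.83 CPM in PXGL. HLA-E, HLA-F and HLA-G summed to 39.1 ± 1.08, 39.7 ± 1.51 and 66.4 ± 2.58 CPM in the same groups.

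**Figure D3:**
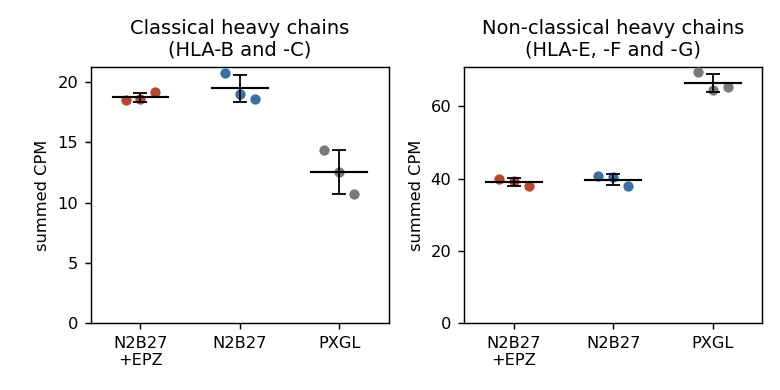
Summed CPM of HLA-B and HLA-C (left) and of the non-classical HLA-E, HLA-F and HLA-G (right) in each library, with the mean and 1 SD. In PXGL the left sum is lowest, at 10.7 to 14.4 CPM, and the right sum highest, at 64.5 to 69.3 CPM.

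Some reads of these genes cannot be placed with certainty. HLA-C shares 5.38% of its 50-base transcript words with other genes in GENCODE 29, HLA-E 4.34%, TAPBP 4.17%, PSMB9 2.89%, HLA-B 2.72% and TAP1 0.88%. B2M, PSMB8 and NLRC5 share none of theirs. Expected counts of TAPBP were fractional in every library, as in PXGL replicate 1 (27.67), so its counts may include reads of other genes or lack some of its own. In that annotation HLA-B overlaps HLA-C on the same strand, and PSMB9 overlaps TAP1 and PSMB8 on the opposite strand. Whether the counting used strand is not stated, so TAP1, PSMB8, PSMB9 and NLRC5 reads from the overlaps cannot be told apart. HLA-B also overlaps LINC02571 on the same strand over 7735 bases, and NLRC5 overlaps an antisense gene over 5993 bases. The class II gene HLA-DQB1, described below, overlaps HLA-DQB1-AS1 on the opposite strand over 850 bases, so the same limit holds for it.

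The rest of the peptide-loading list, from transporter to trimming enzymes, was mostly not called with EPZ-6438. Of 9 tested genes of 10, B2M rose, CANX fell and 7 were not called, near the 24.7% of all genes called, with a median log2 of 0.10 against 0.01 over all genes. CANX, the chaperone calnexin, fell by 0.24 on the log2 scale (adjusted p = 0.00639). In N2B27 against PXGL 6 of the 9 rose, against 27.3% of all genes, with B2M falling. ERAP1, which trims peptides in the endoplasmic reticulum, averaged 9.68 ± 1.87 CPM in N2B27 and 2.7 ± 0.821 CPM in PXGL, a 3.58-fold rise (adjusted p = 1.19e-06). The chaperones CALR, PDIA3 and CANX rose 1.21-fold, 1.19-fold and 1.15-fold (adjusted p = 0.00142, 0.00189 and 0.00891).

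No immunoproteasome gene was called in either comparison (0 of 3 tested of 5 by edgeR, 0 at an unadjusted p under 0.05 and 0 by DESeq2), with adjusted p-values of 0.487 to 0.934 with EPZ-6438. Over all genes 24.7% were called with EPZ-6438 and 56% in N2B27 against PXGL. The inducible subunits PSMB8, PSMB9 and PSMB10 came to 8.25 ± 0.982 CPM with EPZ-6438, 8.05 ± 0.101 CPM in N2B27 and 9.33 ± 2.41 CPM in PXGL. PSMB10, not among the 9 genes, made up most of each sum, at 7.36, 7.53 and 8.82 CPM in that order. The constitutive subunits PSMB5, PSMB6 and PSMB7 that the inducible subunits replace summed to 383 ± 16.0, 434 ± 5.37 and 339 ± 55.1 CPM. Inducible counts were thus 2.16% ± 0.286, 1.85% ± 0.0357 and 2.73% ± 0.250 of the constitutive counts. PSMB7 fell by 0.27 on the log2 scale with EPZ-6438 (adjusted p = 0.0408), a call that ended without any 1 EPZ-6438 or N2B27 library (adjusted p up to 0.128). In N2B27 against PXGL all 3 constitutive subunits rose, against 27.3% of all genes. PSMB7, PSMB5 and PSMB6 rose 1.37-fold, 1.26-fold and 1.22-fold (adjusted p = 0.000486, 0.00539 and 0.0168), and the PSMB6 call ended without N2B27 replicate 3 or PXGL replicate 3 (adjusted p up to 0.0839).

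Of 9 class I promoter factors tested, NLRC5 among them, 3 fell with EPZ-6438 and none rose, against 10.6% of all genes lower and 24.7% called, with a median log2 of -0.14. NFYB, a subunit of the NF-Y factor of the CCAAT box, averaged 49.2 ± 3.4 CPM with EPZ-6438 and 77.6 ± 3.80 CPM in N2B27 (log2 -0.66, adjusted p = 1.04e-05). RFX5 and RFXANK, subunits of the RFX complex of the X1 box, averaged 27.1 ± 1.59 and 10.5 ± 0.849 CPM with EPZ-6438, against 41.6 ± 3.64 and 14.4 ± 0.960 CPM in N2B27. Their log2 differences were -0.62 (adjusted p = 0.000134) and -0.46 (adjusted p = 0.0124), and the RFXANK call ended without EPZ-6438 replicate 1 or N2B27 replicate 2 (adjusted p up to 0.0596). RFXAP, the other subunit, was not called (log2 -0.05, adjusted p = 0.872). In N2B27 against PXGL 3 of the 9 rose, near the 27.3% of all genes higher. None fell and 6 were not called, against 56% of all genes called. NFYB, ATF1 and CREB1 were the 3 that rose, by 1.80-fold, 1.44-fold and 1.24-fold (adjusted p = 1.16e-07, 0.00360 and 0.00373).

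Interferon and NF-κB signals induce the pathway. Of 15 interferon signalling genes 3 rose and none fell with EPZ-6438, against 24.7% of all genes called. JAK1, STAT2 and IFNAR1 rose by 1.33-fold, 1.46-fold and 1.22-fold (adjusted p = 0.000411, 0.00134 and 0.0249). The IFNAR1 call ended without EPZ-6438 replicate 2 or 3 or N2B27 replicate 2 or 3 (adjusted p up to 0.110). IRF1, which binds IRF cores in class I promoters, averaged 6.23 ± 0.894 CPM with EPZ-6438 and 6.61 ± 0.931 CPM in N2B27 (adjusted p = 0.800). Of 15 interferon-stimulated genes tested, of 28 symbols listed, 3 rose and 1 fell, near the 24.7% of all genes called. Among those not tested, CXCL10, IFI44, IFI44L and XAF1 had 0 counts in every library. IFIT2, RSAD2 and GBP2 had at most 3 counts in any library. MX1, an antiviral GTPase, averaged 22.4 ± 0.60 CPM with EPZ-6438 and 9.16 ± 0.745 CPM in N2B27 (2.44-fold, adjusted p = 3.70e-07), and in PXGL it averaged 26.8 ± 2.27 CPM. USP18 and GBP1 rose by 1.5-fold and 4.73-fold (adjusted p = 0.00140 and 0.0214), and IFITM2 fell by 0.33 on the log2 scale (adjusted p = 0.0349). The GBP1 call ended without EPZ-6438 replicate 1 or 3 or N2B27 replicate 2 or 3, and the IFITM2 call without EPZ-6438 replicate 2 or 3 or N2B27 replicate 2 or 3 (adjusted p up to 0.159). Of 10 NF-κB genes 4 rose and none fell, against 14.2% of all genes higher. NFKB2, which gives the p52 subunit, averaged 201 ± 8.32 CPM with EPZ-6438 and 114 ± 6.21 CPM in N2B27 (1.76-fold, adjusted p = 7.32e-08), and NFKB1 and NFKBIA rose by 1.36-fold and 1.29-fold (adjusted p = 0.00921 and 0.00971). BIRC3 rose by 2.84-fold (adjusted p = 0.0401). The BIRC3 call ended without any 1 EPZ-6438 library or N2B27 replicate 1 or 3, the NFKB1 call without EPZ-6438 replicate 2 and the NFKBIA call without EPZ-6438 replicate 1 or N2B27 replicate 2 (adjusted p up to 0.173).

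In N2B27 against PXGL, of 15 signalling genes 4 rose and 5 fell, a share close to the 56% of all genes called (27.3% higher and 28.7% lower). SOCS3, a feedback inhibitor of JAK-STAT signalling, rose 6.83-fold to 10.9 ± 1.69 CPM in N2B27, against 1.60 ± 0.426 CPM in PXGL (adjusted p = 6.89e-09), and SOCS1, another such inhibitor, rose 1.71-fold (adjusted p = 0.000280). TYK2 and IFNAR1 fell by 1.0 and 0.55 on the log2 scale (adjusted p = 2.66e-07 and 4.34e-05). Among 15 interferon-stimulated genes 6 rose and 2 fell, again close to that share, with RIGI 10.9-fold higher (adjusted p = 1.50e-07) and MX1 and OAS1 lower by log2 differences of -1.55 and -3.51 (adjusted p = 5.23e-09 and 1.40e-05). IFITM3, a membrane protein that blocks virus entry, averaged 269 ± 11.9 CPM in N2B27 and 203 ± 24.8 CPM in PXGL (1.32-fold, adjusted p = 0.000267). Expected counts of IFITM3 and its paralog IFITM1 were fractional in the same libraries, as in N2B27 replicate 1 (3687.53 and 3687.47). The fractions do not give how many reads were split between IFITM3 and IFITM1, so the extent is not known. Counts of IFITM2 were whole in every library. Of the 10 NF-κB genes 2 rose and 4 fell in N2B27, also close to the 56% of all genes. NFKB2 averaged 114 ± 6.21 CPM in N2B27 and 177 ± 4.29 CPM in PXGL and fell by 0.63 on the log2 scale (adjusted p = 3.14e-07). RELA, the p65 subunit, fell by 0.40 on the log2 scale (adjusted p = 0.00199). NFKB1 and the TNF receptor TNFRSF1A rose 1.55-fold and 1.41-fold (adjusted p = 0.000283 and 0.000151).

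**Figure D4:**
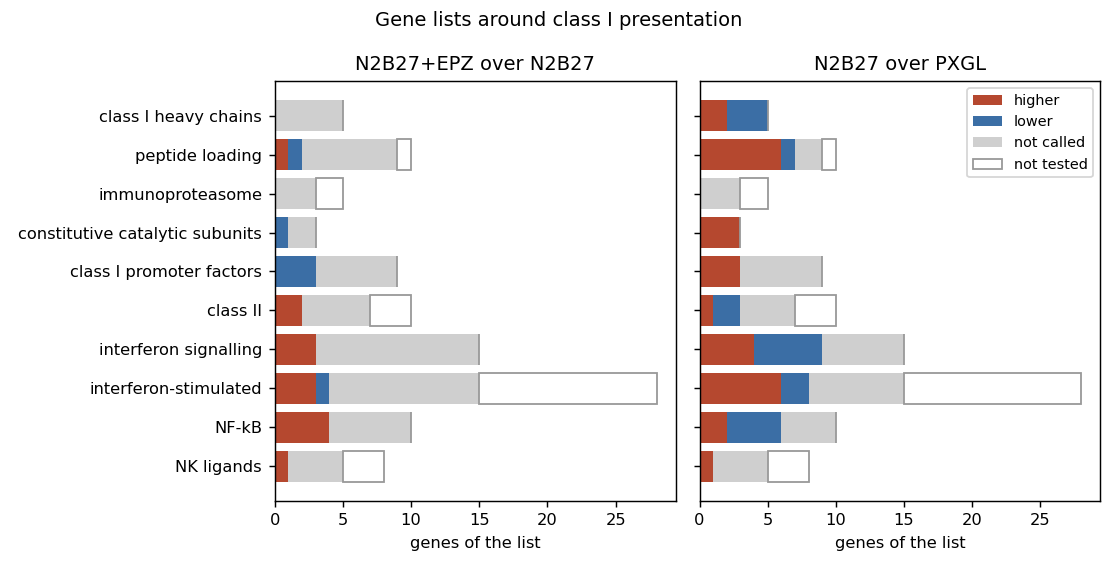
Number of genes in each list that were higher, lower, not called or not tested, EPZ-6438 over N2B27 on the left and N2B27 over PXGL on the right. Of the 5 class I heavy chains none is called on the left and 2 are higher and 3 lower on the right.

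MHC class II genes present peptides from outside the cell and share promoter factors with class I. Of 7 tested of 10, HLA-DQB1 and HLA-DRB1 rose with EPZ-6438 and none fell, against 14.2% of all genes higher and 24.7% called. HLA-DQB1 had 10.5, 10.6 and 9.90 CPM with EPZ-6438, against 1.81, 1.41 and 2.07 CPM in N2B27 (5.84-fold, adjusted p = 8.28e-08). HLA-DRB1 had 12.5, 14.7 and 11.0 CPM with EPZ-6438, against 4.53, 4.22 and 3.60 CPM in N2B27 (3.09-fold, adjusted p = 4.68e-06). Both chains were clear of their N2B27 libraries, a lack of overlap seen for 46.4% of all genes tested. HLA-DQA1, the partner chain of HLA-DQB1, was below the filter on low counts and was not tested. It had 7, 18 and 13 counts with EPZ-6438, against 1, 0 and 3 in N2B27 and 1, 0 and 0 in PXGL. Its EPZ-6438 libraries lay above all the others, on at most 18 counts in a library. Among genes tested, the EPZ-6438 group did not overlap N2B27 for 46.4% and PXGL for 60.7%, in either direction. HLA-DRA, the partner of HLA-DRB1, had 0 to 2 counts per library. CIITA, the class II transactivator, averaged 1.36 ± 0.471 CPM with EPZ-6438 and 1.54 ± 0.429 CPM in N2B27 (adjusted p = 0.764). HLA-DRB1 shares 9.92% of its words with other genes, 8.64% with HLA-DRB5, so its reads may include that gene's. In N2B27 against PXGL, HLA-DQB1 and HLA-DRB1 fell, by 0.97 and 0.73 on the log2 scale (adjusted p = 0.000982 and 0.00309), and HLA-DPB1 rose 1.43-fold (adjusted p = 0.0126), a call that ended without N2B27 replicate 1 or PXGL replicate 2 (adjusted p up to 0.0693). The other 4 of the 7 tested were not called, against 56% of all genes called.

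**Figure D5:**
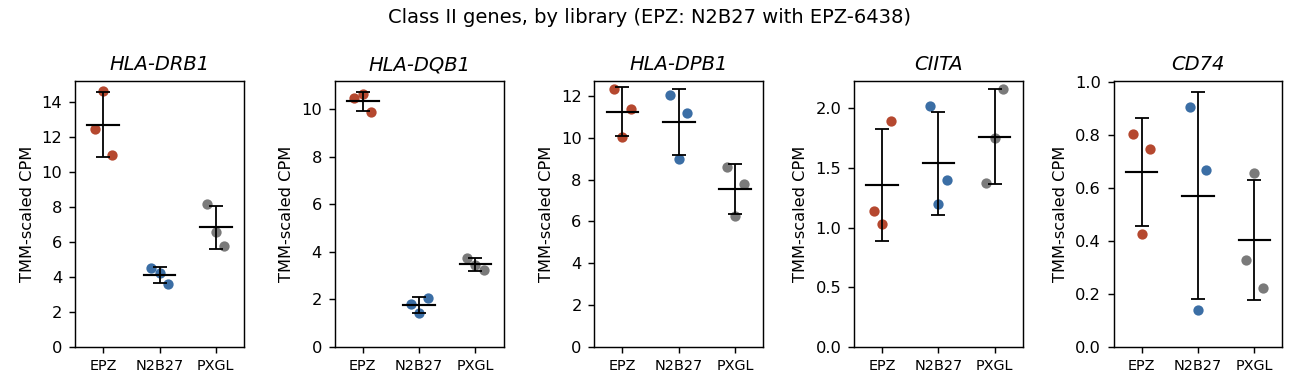
TMM-scaled CPM of 5 class II genes in each library, with the mean and 1 SD. HLA-DRB1 and HLA-DQB1 with EPZ-6438 lie above both other groups, at 11.0 to 14.7 and 9.90 to 10.6 CPM, while CIITA and CD74 overlap in all groups.

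Ligands of the natural killer receptor NKG2D, a counterpart to class I in recognition, were mostly not called with EPZ-6438. ULBP1 rose 1.45-fold (adjusted p = 0.00253), the single call of 5 tested of 8, near the 24.7% of all genes. In N2B27 against PXGL ULBP3 rose 2.05-fold (adjusted p = 0.000968), the single call of the 5 tested, against 56% of all genes called.

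The genes whose log2 CPM most resembled B2M over the 9 libraries were SMIM8 (r = 0.98), PLIN2 (r = 0.98) and TRIM34 (r = 0.98), and 72 genes had an r over 0.95. PLIN2, a lipid droplet coat protein, averaged 74.0 ± 3.59 CPM with EPZ-6438, 46.6 ± 2.00 CPM in N2B27 and 75.6 ± 9.23 CPM in PXGL. TRIM34 had 10, 15 and 7 counts with EPZ-6438, 0 in each N2B27 library and 24, 23 and 19 in PXGL. For NLRC5 the nearest were SEMA3C (r = 0.95), HLCS (r = 0.94) and ZBTB5 (r = 0.93). These correlations describe libraries that share group and depth.

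EZH2, the target of the inhibitor, averaged 82.5 ± 3.61 CPM with EPZ-6438, 72.0 ± 2.86 CPM in N2B27 and 78.3 ± 1.49 CPM in PXGL. It was called higher with EPZ-6438 than in N2B27 (log2 0.20, SE 0.07, adjusted p = 0.0415). The call ended under 10 of 15 alternatives (adjusted p up to 0.165). The inhibitor acts on the enzyme's activity, so its RNA level does not check the labels.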

How the data were processed

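RNA was measured in 9 libraries of H1 cells. The labels' protocols describe Trizol extraction and depletion of ribosomal RNA, while the molecule label names polyA RNA, which was not settled. A single table of expected counts, which can be fractions of a read, was deposited by the authors, and 7.13% to 8.09% of its values per library were not whole. The tools named per the submitters' processing notes are STAR 2.7.6a, Trim Galore and DESeq2, and the build is hg38. Which step each served, the counting program, the annotation and strandedness are not stated.

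Counts were rounded, scaled by TMM and tested in edgeR 4.0.16 (R 4.3.3) by quasi-likelihood over all 3 groups, with filterByExpr leaving 15179 of 22640 genes with a count; p-values were adjusted by Benjamini-Hochberg. A call is an adjusted p under 0.05. Intervals were 95%. The floor was 3 counts and covers counting error only. Levels per kb used the median length of principal transcripts in GENCODE 29. On simulated data for N2B27 with EPZ-6438 against N2B27 (14470 genes), 64% of 1.5-fold and 82% of 2-fold changes were recovered, with 9 false calls. Only 100 genes were changed at each size, against 3752 called in the data, and genes of all levels were pooled. These rates therefore do not give the power of the real comparison or that for low genes such as NLRC5. Alternatives were DESeq2 1.42.0, its size factors, other filters, only the groups compared, a replicate block, each library left out, and heavy chain sums (added after seeing the data).

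The members and lists were chosen with earlier results of these data known. All 9 members are named in every comparison; of each list, up to 4 called genes with the smallest adjusted p in the EPZ-6438 and N2B27-against-PXGL comparisons, plus EZH2 and the 3 genes most like B2M and NLRC5. HLA-F, HLA-G, IRF1, CIITA, HLA-DRA, HLA-DQA1, CD74, RFXAP, PSMB10 and IFITM1 were named for context after their values were seen. So were the interferon-stimulated genes that were not tested. Of these lists 2 genes are not reported here.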

Additional observations from a re-analysis of the deposited data

How the results depend on the processing

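B2M was the 1 member called with EPZ-6438 against N2B27 as reported and under all 15 alternatives, with log2 differences of 0.64 to 0.73. In that comparison the number of genes called, 3752, was 5641 with only the 2 groups fitted and 2762 to 5770 when 1 library was left out; 5770 was without PXGL replicate 1. The cause was not tested. For N2B27 against PXGL, leaving out 1 library gave 7663 to 9506 genes and 4 to 5 members called. For N2B27 with EPZ-6438 against PXGL it gave 7599 to 9452 genes and 3 to 5 members, and 3 members were called with no low-count filter. With 3 members, HLA-C and NLRC5 were those no longer called. Among genes not called with EPZ-6438 against N2B27, leaving out libraries turned the sign of the log2 difference of HLA-C (-0.0158 to 0.1007), TAPBP (-0.1445 to 0.1972), HLA-F (-0.0571 to 0.2391), HLA-G (-0.3689 to 0.1055) and PSMB10 (-0.1236 to 0.0499), and in N2B27 against PXGL that of PSMB10 (-0.3773 to 0.0376).

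With a replicate block, 3696, 8507 and 8489 genes and 1, 4 and 5 members were called in EPZ-6438 against N2B27, N2B27 against PXGL and EPZ-6438 against PXGL, and HLA-C in N2B27 against PXGL had an adjusted p of 0.0509. Same-numbered libraries correlated between -0.026 and 0.037 in their deviations from group means, so the numbers give no sign of pairing. Depth limits PSMB8 and PSMB9, which had at most 17 and 4 counts in any library.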
